A study of Mus musculus with 14 samples.

Results

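The genes described here encode the catalytic core and the main variant subunits of polycomb repressive complex 1 (PRC1), measured as messenger RNA in mouse embryonic stem cells. They are the 10 genes Ring1, Rnf2, Pcgf1, Pcgf2, Bmi1 (also called Pcgf4), Pcgf3, Pcgf5, Pcgf6, Rybp and Kdm2b, matched by Ensembl identifier among the 37991 gene IDs of the deposited tables. All 10 were found in both tables and all passed the filter on low counts. The cells are of the J1 line, of 129S4/SvJae background, and were sequenced in 14 poly(A) libraries that form 7 groups of 2. Experiment 1 held Dnmt-TKO cells, which are mutant for Dnmt1, Dnmt3a and Dnmt3b and are called TKO below, with the PRC1 inhibitor PRT4165, TKO cells with the vehicle DMSO, wild-type cells with PRT4165 and wild-type cells with DMSO. Experiment 2 held Tet1-KO Dnmt-TKO cells, which also carry a knockout of Tet1 (called Tet1-KO TKO), TKO cells and wild-type cells, all without a treatment label. The comparisons ask what loss of DNA methylation enzymes, exposure to the inhibitor and loss of Tet1 did to the transcripts of the complex that the inhibitor is aimed at. The word experiment stands here for 1 of the 2 deposited count tables, and the labels do not say whether the cells were grown separately for each. The sources used here give neither the number of clones behind each mutant line nor the dose and duration of PRT4165.

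PRC1 places a single ubiquitin on histone H2A and compacts chromatin, and in embryonic stem cells it keeps developmental genes low. RING1 and RNF2 (RING1B) are alternative catalytic E3 ubiquitin ligases, and each pairs with 1 of the 6 PCGF proteins. PCGF2 and BMI1 form the canonical complexes with CBX and PHC proteins, whereas PCGF1, PCGF3, PCGF5 and PCGF6 form variant complexes that contain RYBP or its relative YAF2. KDM2B joins the PCGF1 complex and carries a CXXC zinc finger that binds unmethylated CpG dinucleotides, the sites that DNA methyltransferases modify.

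Promoter sequences are shown for Rnf2, Bmi1 and Pcgf2, the catalytic gene that fell furthest in TKO cells and the canonical PCGF pair that moved in opposite directions. Each RefSeq window on GRCm38.p6 covers 250 bases before to 50 bases after the annotated start, 5′ to 3′ along the gene, with every CpG in capitals.
Rnf2: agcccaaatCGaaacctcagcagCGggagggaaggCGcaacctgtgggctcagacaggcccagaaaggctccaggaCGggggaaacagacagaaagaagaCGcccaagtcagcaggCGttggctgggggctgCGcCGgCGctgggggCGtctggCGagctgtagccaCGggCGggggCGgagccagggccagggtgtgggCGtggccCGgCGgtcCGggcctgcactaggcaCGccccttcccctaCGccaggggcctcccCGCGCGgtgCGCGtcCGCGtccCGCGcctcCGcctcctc
Bmi1: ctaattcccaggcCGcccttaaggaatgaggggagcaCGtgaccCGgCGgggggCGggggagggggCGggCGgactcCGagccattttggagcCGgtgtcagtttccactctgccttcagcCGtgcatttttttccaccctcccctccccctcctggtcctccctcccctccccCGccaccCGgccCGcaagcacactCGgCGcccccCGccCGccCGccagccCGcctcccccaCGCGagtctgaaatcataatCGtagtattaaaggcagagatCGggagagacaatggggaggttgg
Pcgf2: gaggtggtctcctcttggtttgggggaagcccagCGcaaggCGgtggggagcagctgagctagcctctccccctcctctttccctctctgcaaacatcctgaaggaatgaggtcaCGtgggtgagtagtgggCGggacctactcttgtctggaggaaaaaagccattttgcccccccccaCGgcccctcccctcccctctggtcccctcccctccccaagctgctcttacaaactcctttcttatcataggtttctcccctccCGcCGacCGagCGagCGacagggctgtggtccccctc
The Rnf2 window lies at chr1:151500942-151501241 on the minus strand and holds 30 CpG. The Bmi1 window lies at chr2:18676768-18677067 on the plus strand and holds 23 CpG. The Pcgf2 window lies at chr11:97699599-97699898 on the minus strand and holds 10 CpG. The median over all 32851 windows of the table was 7 CpG. Windows were found for 8 of the 10 members, not for Pcgf1 or Rybp, and the 13 member windows held 5 to 49 CpG. The E-box letters CACGTG occur in the Bmi1 and Pcgf2 windows only among the 13, and in 7.15% of all windows. The letters TCCCGC, an E2F-type motif searched on both strands, occur in 5 of the 13 member windows and in 19.98% of all windows. Kdm2b and Pcgf5 have several windows each. Among the 5 are the Kdm2b windows chr5:122900318-122900617 and chr5:122900301-122900600, which cover nearly the same bases, so the 5 are not separate promoters. These matches describe the letters of a window and not the binding of a factor.

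The count totals ran from 25588815 to 37399837 a library in experiment 1 and from 23354015 to 41844823 in experiment 2, and a member had between 184 and 13723 counts in a library. Levels are read counts relative to the library's total (CPM), scaled by TMM, and changes are log2 changes from edgeR's quasi-likelihood test with its standard error (SE), with a gene called at a Benjamini-Hochberg adjusted p under 0.05 over all genes tested. The targeted transcripts followed the labels. In TKO cells Dnmt1, Dnmt3a and Dnmt3b fell by 1.75, 1.28 and 2.14 on the log2 scale with vehicle, and by 1.5, 0.97 and 1.55 without treatment. Tet1 fell by 2.19 in Tet1-KO TKO against TKO cells. Dnmt3a fell further in that comparison, by 1.04 (SE 0.15, adjusted p = 5.99e-04 by edgeR). It had 15.03 and 21.6 CPM in Tet1-KO TKO cells, against 37.9 and 37.4 CPM in TKO cells. The labels give no Dnmt3a difference between these 2 lines. Loss of Tet1 and any other difference between the lines cannot be told apart here, and the source of this fall was not tested. Other cell states moved with the groups. The 10 pluripotency markers, all detected in every group, summed to 3327 to 3477 CPM in TKO cells with PRT4165, 4500.4 to 4516 in TKO vehicle cells, 5157 to 5329.7 in wild-type cells with PRT4165 and 6000.0 to 6134 in wild-type vehicle cells. The 10 trophoblast markers summed to 358 to 369 CPM, 268 to 269.6 CPM, 47.2 to 50.03 CPM and 22.3 to 25.2 CPM in the same 4 groups, with Tpbpa at 0 in both wild-type groups and Elf5 at 0 in wild-type vehicle cells. In experiment 2 the trophoblast sum was 216 to 233 CPM in Tet1-KO TKO, 84.9 to 102 CPM in TKO and 29.2 to 31.8 CPM in wild-type cells, where Tpbpa was at 0, and the pluripotency sum was 6488 to 6672, 5869 to 5923 and 7589.8 to 8259 CPM. The 10 feeder fibroblast markers summed to 15.01 to 34.8 CPM over all libraries, with 4 of them, Col3a1, Postn, Lum and Dcn, at 0 in wild-type vehicle cells. The 10 endoderm markers, all detected in every group, summed to 569.9 to 571 CPM in TKO cells with PRT4165, 595 to 629 in TKO vehicle cells, 972 to 1014 in wild-type cells with PRT4165 and 754 to 760.4 in wild-type vehicle cells. In experiment 2 they summed to 441 to 1087 CPM in Tet1-KO TKO, 291 to 475.3 in TKO and 507 to 726 in wild-type cells. The part of these marker differences in the results was not tested, and in such bulk RNA fewer cells of a type and less RNA per cell cannot be told apart.

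**Figure D1:**
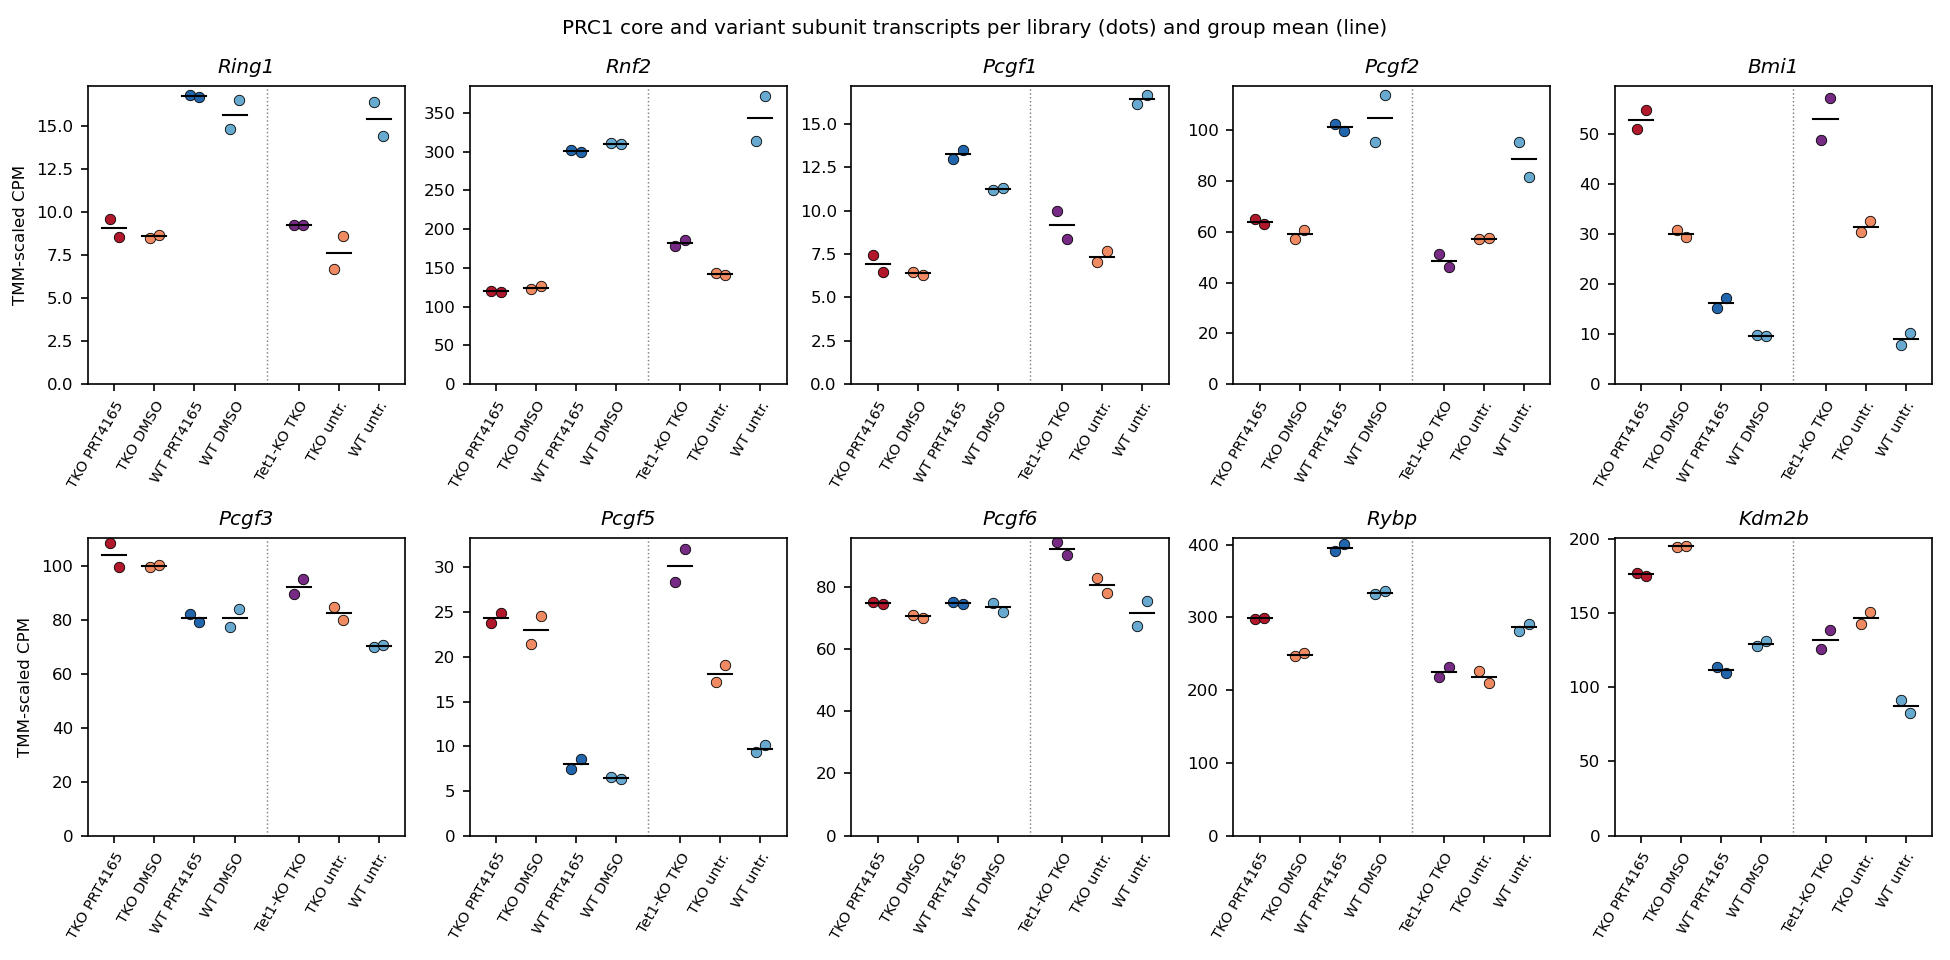
Level of each of the 10 genes in every library, in TMM-scaled CPM on a linear axis that starts at 0. Each dot is a library, each line a group mean, and the dotted line separates experiment 1 (left) from experiment 2 (right). Rnf2, Ring1, Pcgf1, Pcgf2 and Rybp stood lower in every TKO library, Tet1-KO TKO included, than in every wild-type library of the same experiment. Bmi1, Pcgf3, Pcgf5 and Kdm2b stood higher in the same way, and Pcgf6 overlapped in experiment 1. The share of all genes that lie apart like this was not counted. Between TKO and wild-type cells 69.0% of all genes tested were called with vehicle and 50.2% without treatment.

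The catalytic genes fell together in TKO cells. Rnf2, the more abundant E3 ligase gene, had 122 and 127 CPM in TKO vehicle cells, against 311 and 309.7 CPM in wild-type vehicle cells. The groups did not overlap, and the level was 2.49-fold lower in TKO cells (log2 change -1.32, SE 0.04, adjusted p = 2.22e-18). Without treatment it had 144 and 141 CPM in TKO cells, against 314 and 372 CPM in wild-type cells, a log2 change of -1.27 (SE 0.11, adjusted p = 1.70e-06). Experiment 2 thus gave the same direction with no shared library, though genotype and cell line cannot be told apart in either experiment. Ring1, the other E3 ligase gene, had 8.52 and 8.67 CPM in TKO vehicle cells, against 14.8 and 16.5 CPM in wild-type vehicle cells. Without treatment it had 6.71 and 8.59 CPM in TKO cells, against 16.4 and 14.4 CPM in wild-type cells. Its log2 change was -0.87 (SE 0.10, adjusted p = 2.58e-08) with vehicle and -1.01 (SE 0.16, adjusted p = 2.64e-04) without, so neither catalytic paralogue rose where the other fell. Rnf2 shares 158 exon bases with the oppositely oriented Trmt1l, which fell by 1.04 in TKO vehicle cells, and the strand setting of the counting is unknown here.

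Scaled by length, the catalytic pair summed to 32.8 ± 0.8399 CPM per kb of merged exon in TKO vehicle cells and 80.1 ± 0.0749 CPM per kb in wild-type vehicle cells (SD, n = 2 each). Without treatment the sum was 36.9 ± 0.0394 CPM per kb in TKO cells and 87.9 ± 9.47 CPM per kb in wild-type cells. The balance within the pair moved little. Rnf2 made up 91.9 ± 0.103% of the pair's length-scaled CPM in TKO vehicle cells and 93.97 ± 0.454% in wild-type vehicle cells, and its mean share lay between 91.2% and 94.5% in all 7 groups.

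The genes of the canonical PCGF pair changed in opposite directions. Bmi1, a canonical subunit known for sustaining stem cell self-renewal by repressing cell cycle inhibitors, had 30.8 and 29.3 CPM in TKO vehicle cells, against 9.75 and 9.67 CPM in wild-type vehicle cells. It was 3.097-fold higher in TKO cells (log2 change 1.63, SE 0.08, adjusted p = 4.35e-15). Without treatment Bmi1 had 30.3 and 32.6 CPM in TKO cells, against 7.801 and 10.2 CPM in wild-type cells (log2 change 1.81, SE 0.15, adjusted p = 1.37e-06). All TKO libraries lay well above all wild-type libraries. Pcgf2 (Mel18), the other canonical PCGF gene, had 57.3 and 60.9 CPM in TKO vehicle cells, against 95.4 and 114 CPM in wild-type vehicle cells. Without treatment it had 57.02 and 57.7 CPM in TKO cells, against 95.5 and 81.5 CPM in wild-type cells. Pcgf2 fell by 0.83 (SE 0.06, adjusted p = 2.56e-11) with vehicle and by 0.63 (SE 0.11, adjusted p = 4.79e-04) without, on the log2 scale. Their promoter windows, printed above, both hold the letters CACGTG, whose part in these changes was not tested.

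As a share of the length-scaled CPM of Pcgf2 and Bmi1 together, Bmi1 made up 32.3 and 29.9% in the TKO vehicle libraries and 8.32 and 6.998% in the wild-type vehicle libraries. Without treatment it made up 32.1 and 33.4% in TKO libraries and 6.76 and 10.03% in wild-type libraries. Pcgf2 thus remained the larger of the pair in these TKO libraries, with the summed pair at 24.3 ± 0.457 CPM per kb in TKO vehicle cells and 32.1 ± 3.73 CPM per kb in wild-type vehicle cells.

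The variant PCGF genes split. Pcgf1, the partner of Kdm2b and Bcor, had 6.496 and 6.29 CPM in TKO vehicle cells, against 11.2 and 11.3 CPM in wild-type vehicle cells, and 7.02 and 7.68 CPM in untreated TKO cells, against 16.2 and 16.7 CPM in untreated wild-type cells. It fell by 0.81 (SE 0.11, adjusted p = 4.19e-07) with vehicle and by 1.16 (SE 0.15, adjusted p = 6.17e-05) without. Pcgf5, an AUTS2 partner, went the other way. It had 21.4 and 24.6 CPM in TKO vehicle cells, against 6.57 and 6.34 CPM in wild-type vehicle cells, and 17.1 and 19.1 CPM in untreated TKO cells, against 9.32 and 10.1 CPM in untreated wild-type cells. Pcgf5 was 3.56-fold higher with vehicle (log2 change 1.83, SE 0.10, adjusted p = 3.42e-14) and 1.86-fold higher without (log2 change 0.90, SE 0.14, adjusted p = 1.82e-04). Both groups of each experiment were apart, but the size of the rise differed between the experiments, as tested below.

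Pcgf3, the close paralogue of Pcgf5, moved less. It had 99.8 and 100.4 CPM in TKO vehicle cells, against 77.6 and 84.1 CPM in wild-type vehicle cells, a log2 change of 0.31 (SE 0.05, adjusted p = 1.60e-05). Without treatment it had 84.9 and 80.1 CPM in TKO cells, against 70.00 and 70.9 CPM in wild-type cells, a log2 change of 0.23 that did not pass (SE 0.09, adjusted p = 0.0608). Pcgf6, the partner of MGA, MAX and L3MBTL2 in a complex that silences germline genes, was the member that passed in neither genotype comparison. Its levels were 70.9 and 70.1 CPM in TKO vehicle cells, against 74.9 and 71.9 CPM in wild-type vehicle cells, with a log2 change of -0.06 (95% interval -0.16 to 0.04, adjusted p = 0.303). Without treatment the change was 0.17 (95% interval -0.04 to 0.39, adjusted p = 0.164).

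Of the shared and recruiting subunits, Rybp fell and Kdm2b rose. Rybp, whose protein joins variant complexes and stimulates their ligase activity, had 247 and 251 CPM in TKO vehicle cells, against 333 and 336 CPM in wild-type vehicle cells. Its log2 change was -0.42 (SE 0.04, adjusted p = 3.43e-09) with vehicle and -0.39 (SE 0.10, adjusted p = 0.00488) without treatment, where it had 227 and 210.5 CPM in TKO cells, against 282 and 291 CPM in wild-type cells. The untreated call was lost without TKO replicate 2, with an adjusted p of 0.0939, and held without TKO replicate 1. Kdm2b, which brings the PCGF1 complex to unmethylated CpG islands, had 194 and 195 CPM in TKO vehicle cells, against 128 and 131 CPM in wild-type vehicle cells. Without treatment it had 142 and 150.4 CPM in TKO cells, against 91.7 and 82.6 CPM in wild-type cells. It rose by 0.59 (SE 0.04, adjusted p = 1.56e-11) with vehicle and by 0.75 (SE 0.10, adjusted p = 7.87e-05) without. Kdm2b and its PCGF partner Pcgf1 therefore moved in opposite directions in both experiments. Kdm2b shares 627 exon bases with Rnf34, which fell by 0.27 with vehicle, and 199 with A930024E05Rik, which rose by 1.03 from a low level of at most 3.87 CPM in any library of experiment 1.

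**Figure D2:**
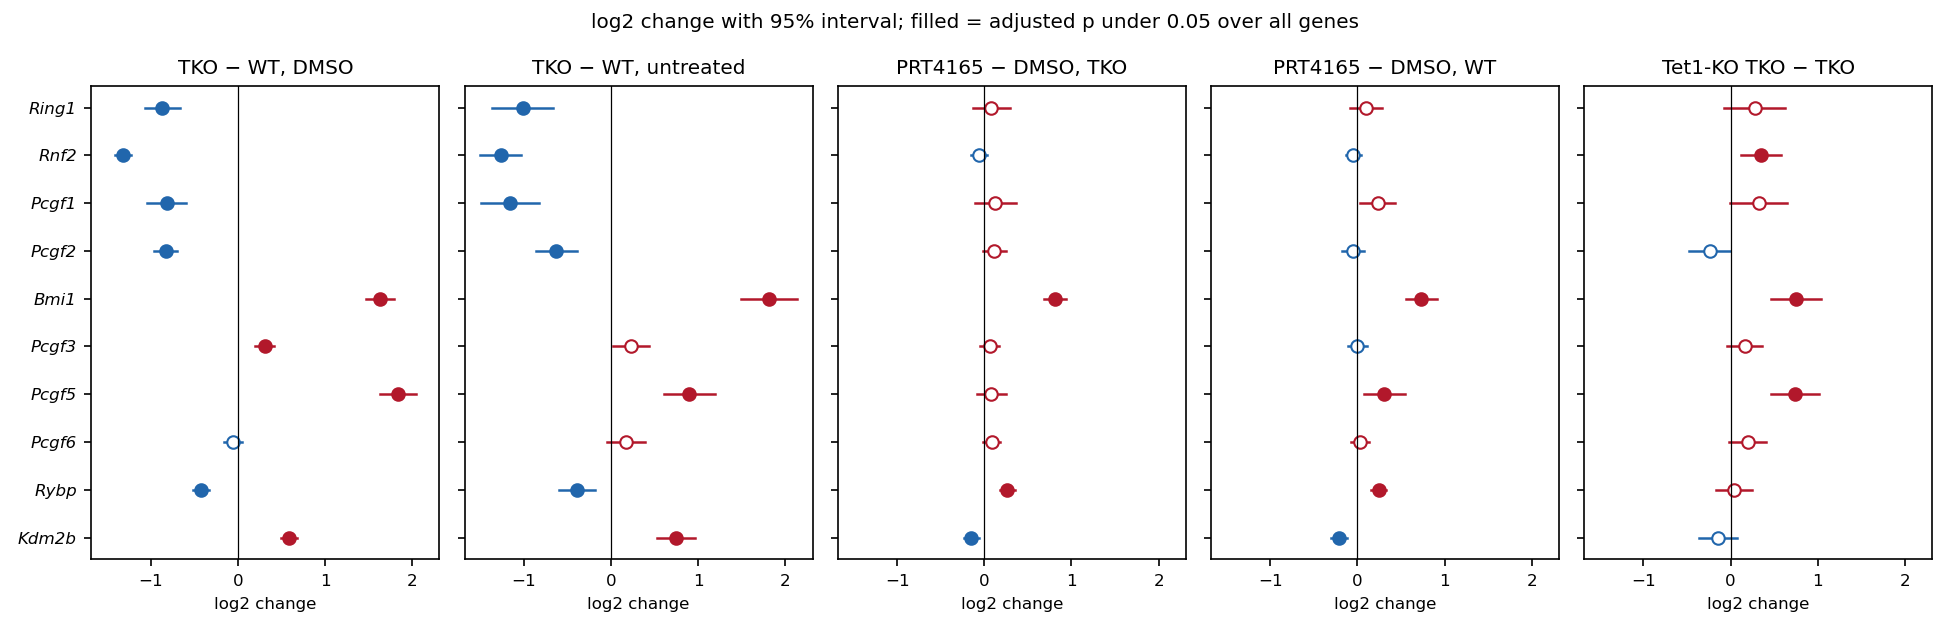
log2 change of each gene in 5 comparisons, with its 95% interval from edgeR. Filled points passed an adjusted p under 0.05 over all genes tested, red is higher and blue lower in the first-named group. In both genotype panels Rnf2, Ring1, Pcgf1, Pcgf2 and Rybp lie left of 0 and Bmi1, Pcgf5 and Kdm2b right of it, and Bmi1 lies right of 0 in all 5 panels.

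With vehicle, 9 of the 10 genes were called between TKO and wild-type cells, 4 higher and 5 lower, where 69.0% of the 16711 genes tested were called, 34.8% higher and 34.2% lower. Without treatment 8 were called, 3 higher and 5 lower, where 50.2% of the 16303 genes tested were called, 25.9% higher and 24.3% lower. All 8 genes called without treatment were also called with vehicle and in the same direction. The median change over the 10 genes was -0.24 with vehicle and -0.11 without, beside 0.01 and 0.00 over all genes tested. With so many genes called, the number of members called is not far from that background, and the sizes and directions above are the description. Scaling by library size alone raised the median of all genes by 0.15 with vehicle and moved the share of calls that were higher to 63.5%, against 50.5% with TMM, while the members still numbered 4 higher and 5 lower.

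A joint fit of all 14 libraries tested whether the genotype change itself differed between the vehicle and the untreated experiment. Pcgf5 alone of the 10 genes passed, with a change larger by 0.90 with vehicle (SE 0.16, adjusted p = 0.00198), where 12.9% of the 17246 genes tested were called, 5.42% higher and 7.5% lower. For Rnf2 the difference was -0.08 (95% interval -0.30 to 0.13), for Bmi1 -0.21 (95% interval -0.56 to 0.14) and for Ring1 0.12 (95% interval -0.26 to 0.50). Pcgf6 had a difference of -0.26 (adjusted p = 0.0879) and passed when wild-type untreated replicate 2 was left out (-0.34, adjusted p = 0.0196). Vehicle and experiment cannot be told apart in this test, and by library size alone the share of calls that were higher was 72.9%, against 41.9% with TMM.

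Each member was set beside the genes around it. Rnf2 lies on chromosome 1, whose other 894 tested genes had a median log2 change of -0.40 between TKO and wild-type vehicle cells, against 0.01 over the other autosomes. Its 20 nearest tested genes had a median of -0.46. Rnf2 itself was -0.91 relative to the chromosome median, and 8.39% of the chromosome's genes fell further. Without treatment the chromosome median was -0.46, and Rnf2 stood at -0.81 relative to it. The part of this chromosome-wide difference in the fall of Rnf2 was not tested.

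For the other members the chromosome median was near 0. Bmi1 stood 1.59 above the median of chromosome 2 with vehicle and 1.78 above it without, with 18 of its 20 neighbours below it each time. Pcgf5 stood 1.87 above the median of chromosome 19 with vehicle, but its 20 neighbours had a median of 0.57. The neighbours of Pcgf1 on chromosome 6 had a median of -0.57 with vehicle and -0.59 without, beside chromosome medians of 0.00 and -0.02, so Pcgf1 fell among neighbours that were also low. Ring1 on chromosome 17 fell where its neighbours had a median of 0.14 with vehicle, and none of the 20 was below it.

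**Figure D3:**
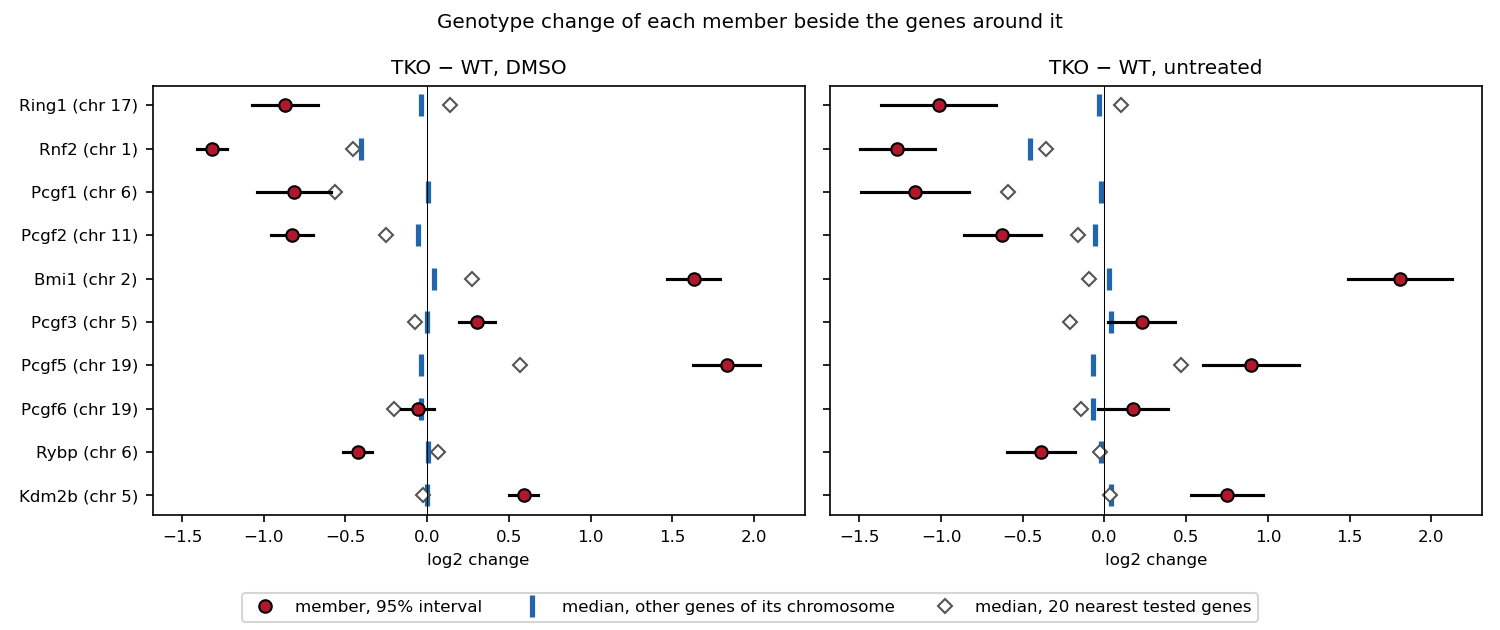
log2 change between TKO and wild-type cells for each gene (red, with 95% interval), beside the median of the other tested genes of its chromosome (blue bar) and of its 20 nearest tested genes (diamond), with vehicle (left) and without treatment (right). Only for Rnf2 among the 10 is the blue bar far from 0, at -0.40 and -0.46.

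Of the members, Bmi1 changed most with the inhibitor. In TKO cells Bmi1 had 50.9 and 54.7 CPM with PRT4165, against 30.8 and 29.3 CPM with DMSO, and rose by 0.81 (SE 0.06, adjusted p = 5.02e-10). In wild-type cells it had 15.3 and 17.2 CPM with PRT4165, against 9.75 and 9.67 CPM with DMSO, and rose by 0.73 (SE 0.09, adjusted p = 4.02e-07). The libraries with inhibitor and with vehicle did not overlap in either genotype. Rybp rose by less. It had 298 and 299 CPM with PRT4165, against 247 and 251 CPM with DMSO, in TKO cells, and 391 and 400.4 CPM with PRT4165, against 333 and 336 CPM with DMSO, in wild-type cells. The log2 changes of Rybp were 0.26 (SE 0.04, adjusted p = 2.58e-05) and 0.24 (SE 0.04, adjusted p = 6.04e-05). Kdm2b fell in both genotypes. It had 177 and 175 CPM with PRT4165, against 194 and 195 CPM with DMSO, in TKO cells, and 114 and 109.7 CPM with PRT4165, against 128 and 131 CPM with DMSO, in wild-type cells. Its log2 changes were -0.15 (SE 0.04, adjusted p = 0.00865) in TKO and -0.21 (SE 0.04, adjusted p = 6.33e-04) in wild-type cells.

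The catalytic genes, whose protein products the inhibitor is aimed at, were not called. Rnf2 had 120.3 and 119.04 CPM with PRT4165, against 122 and 127 CPM with DMSO, in TKO cells, a log2 change of -0.06 (95% interval -0.15 to 0.03). In wild-type cells it had 303 and 299 CPM with PRT4165, against 311 and 309.7 CPM with DMSO, a log2 change of -0.05 (95% interval -0.13 to 0.04). Ring1 changed by 0.08 (95% interval -0.13 to 0.29) in TKO and by 0.09 (95% interval -0.09 to 0.28) in wild-type cells. These intervals leave room only for small changes of Rnf2 and for somewhat larger ones of Ring1, whose level is low. Pcgf5 had 7.502 and 8.603 CPM with PRT4165, against 6.57 and 6.34 CPM with DMSO, in wild-type cells and was called higher there (log2 change 0.31, SE 0.11, adjusted p = 0.0373). That call was lost by DESeq2, whose adjusted p was 0.0866, and without any filter on low counts, where it was 0.0507. It was also lost without either TKO inhibitor library, without either wild-type vehicle library and without wild-type inhibitor replicate 2, with adjusted p of 0.0508 to 0.22. Pcgf1, Pcgf2, Pcgf3 and Pcgf6 were not called in either genotype, with log2 changes of 0.06 to 0.13 in TKO and -0.05 to 0.23 in wild-type cells. Pcgf2 became a call in wild-type cells without wild-type vehicle replicate 1 (log2 change -0.16, adjusted p = 0.0169), and in TKO cells without wild-type vehicle replicate 1 or 2 (adjusted p = 0.0409 and 0.0413).

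In TKO cells 3 of the 10 genes were called with the inhibitor, 2 higher and 1 lower, where 39.5% of all genes tested were called, 19.9% higher and 19.6% lower. In wild-type cells 4 were called, 3 higher and 1 lower, where 37.6% of all genes were called, 19.0% higher and 18.7% lower. These counts are near the background. The inhibitor's effect was compared between the genotypes by the interaction term, and edgeR called 0 of the 10 genes, where 3.89% of all genes were called, 1.77% higher and 2.12% lower. None had an unadjusted p under 0.05 by edgeR or by DESeq2, and DESeq2 also called 0. The difference was 0.08 for Bmi1 (95% interval -0.14 to 0.30), 0.02 for Rybp (95% interval -0.10 to 0.14) and 0.06 for Kdm2b (95% interval -0.06 to 0.19). Pcgf2 had a difference of 0.17 (95% interval -0.02 to 0.35, adjusted p = 0.3299), and without wild-type vehicle replicate 1 it was 0.28 and was called (adjusted p = 0.0141).

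TKO cells with the inhibitor were also set against wild-type cells with vehicle, a comparison that shares libraries with those above. Bmi1 was at 52.8 ± 2.67 CPM in TKO cells with PRT4165 and 9.71 ± 0.0576 CPM in wild-type vehicle cells (SD, n = 2 each), 5.44-fold higher (log2 change 2.44, SE 0.07, adjusted p = 3.27e-19). Rnf2 was at 119.7 ± 0.912 CPM in TKO cells with PRT4165 and 311 ± 1.21 CPM in wild-type vehicle cells, 2.59-fold lower (log2 change -1.38, SE 0.04, adjusted p = 7.12e-19). In this comparison 9 of the 10 genes were called, 4 higher and 5 lower, where 76.2% of all genes were called, 39.6% higher and 36.7% lower. Rybp, which fell with genotype and rose with the inhibitor, had a net log2 change of -0.16 (SE 0.04, adjusted p = 0.00131). By library size alone, which raised the median of all genes by 0.14, that of Rybp was -0.02 (adjusted p = 0.594).

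Bmi1 and Pcgf5 stood higher in Tet1-KO TKO than in TKO cells. Loss of Tet1 and cell line cannot be told apart in this comparison. TET1 oxidises methylated cytosine and also binds CpG-rich promoters. Bmi1 had 48.8 and 57.1 CPM in Tet1-KO TKO cells, against 30.3 and 32.6 CPM in TKO cells, and rose by 0.75 (SE 0.13, adjusted p = 0.002205). Pcgf5 had 28.3 and 32.1 CPM in Tet1-KO TKO cells, against 17.1 and 19.1 CPM in TKO cells, and rose by 0.74 (SE 0.13, adjusted p = 0.00193). No library of one group overlapped the other for either gene. Rnf2 had 178 and 186 CPM in Tet1-KO TKO cells, against 144 and 141 CPM in TKO cells, and was called higher by 0.35 (SE 0.10, adjusted p = 0.0317). The Rnf2 call was lost when any 1 of these 4 libraries was left out, with adjusted p of 0.0783 to 0.198, and by library size alone, with 0.0700.

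Of the 10 genes 3 were called, all higher, where 22.0% of the 16303 genes tested were called, 11.6% higher and 10.4% lower. By library size alone 40.6% of all calls were higher, against 52.9% with TMM, and 2 members were called. Pcgf2 had 51.2 and 46.1 CPM in Tet1-KO TKO cells, against 57.02 and 57.7 CPM in TKO cells, a log2 change of -0.24 that did not pass (95% interval -0.47 to -0.00, adjusted p = 0.139). Ring1 changed by 0.28 (95% interval -0.07 to 0.63) and Pcgf1 by 0.32 (95% interval -0.01 to 0.65), both short of the threshold. Rybp and Kdm2b changed by 0.04 (95% interval -0.17 to 0.25) and -0.15 (95% interval -0.37 to 0.07). The trophoblast sum given above also stood highest, and Dnmt3a lowest, in Tet1-KO TKO cells within experiment 2. Other markers moved too between Tet1-KO TKO and TKO cells. Of 9 endoderm markers tested 6 were called higher and 0 lower, and of 10 pluripotency markers 3 were higher and 0 lower. Of 5 feeder fibroblast markers tested 0 were higher and 2 lower. The part of any of these in the changes of the members was not tested.

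Between Tet1-KO TKO and wild-type cells all 10 genes were called, 5 higher and 5 lower, where 50.7% of all genes were called, 26.3% higher and 24.4% lower. Bmi1 was 5.902-fold higher (log2 change 2.56, SE 0.15, adjusted p = 6.74e-08) and Pcgf5 3.11-fold higher (log2 change 1.64, SE 0.13, adjusted p = 1.15e-06). Rnf2 had a log2 change of -0.92 (SE 0.10, adjusted p = 1.83e-05). Pcgf6 had 94.5 and 90.1 CPM in Tet1-KO TKO cells, against 67.6 and 75.4 CPM in wild-type cells, and passed here with 0.37 (SE 0.10, adjusted p = 0.00767). The calls of Pcgf6 and Rybp were lost without Tet1-KO TKO replicate 1, with adjusted p of 0.0513 and 0.0743. This comparison shares its Tet1-KO TKO libraries with the one above and its wild-type libraries with the untreated genotype comparison.

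The order of the genes was read from CPM per kb of merged exon. In wild-type vehicle cells the order ran from Rnf2 at 75.2 ± 0.293 and Rybp at 70.5 ± 0.447 through Pcgf2 at 29.7 ± 3.74, Pcgf6 at 14.6 ± 0.429, Kdm2b at 11.9 ± 0.244, Pcgf3 at 8.47 ± 0.483, Pcgf1 at 6.82 ± 0.0591, Ring1 at 4.83 ± 0.368 and Bmi1 at 2.44 ± 0.0145 to Pcgf5 at 0.511 ± 0.0128 CPM per kb (SD, n = 2 each). No pair of neighbours in that order overlapped in these 2 libraries. In TKO vehicle cells Rybp came first at 52.5 ± 0.657 and Rnf2 second at 30.2 ± 0.806 CPM per kb, Kdm2b came next at 17.9 ± 0.05005, and Bmi1 stood at 7.57 ± 0.268, above Pcgf1 at 3.88 ± 0.0867 and Ring1 at 2.65 ± 0.0339. In Tet1-KO TKO cells Pcgf2 at 13.8 ± 1.02, Bmi1 at 13.3 ± 1.47 and Kdm2b at 12.1 ± 0.806 CPM per kb lay close, and the libraries of Bmi1 overlapped those of both others, while those of Pcgf2 all lay above those of Kdm2b. In untreated TKO cells the libraries of Pcgf2 and Pcgf6 overlapped. Pcgf5 was last in all 7 groups on this scale. With the length of the longest transcript in its place, 8 of the 10 genes kept their rank in wild-type vehicle cells, where Pcgf3 and Pcgf1 exchanged ranks, but 6 did in TKO vehicle cells and 3 in Tet1-KO TKO cells, while Ring1 and not Pcgf5 was last in TKO cells with either treatment and in Tet1-KO TKO cells.

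The 6 PCGF genes were also summed. Their summed CPM per kb was 63.4 ± 0.814 in TKO cells with PRT4165, 54.5 ± 0.489 in TKO vehicle cells, 64.8 ± 0.341 in wild-type cells with PRT4165 and 62.5 ± 3.83 in wild-type vehicle cells (SD, n = 2 each). In experiment 2 it was 63.1 ± 0.2598 in Tet1-KO TKO, 54.7 ± 0.113 in TKO and 59.7 ± 0.943 in wild-type cells. Within that sum Bmi1 made up 20.97 ± 1.33% in TKO cells with PRT4165, 13.9 ± 0.615% in TKO vehicle cells, 6.300 ± 0.556% in wild-type cells with PRT4165 and 3.92 ± 0.263% in wild-type vehicle cells. In Tet1-KO TKO cells the Bmi1 share was 21.1 ± 2.42% and the Pcgf2 share 21.9 ± 1.52%. The libraries of Tet1-KO TKO cells and of TKO cells with PRT4165 overlapped in their Bmi1 share, and with the longest transcript the means were 15.8 and 16.02%, in the other order. Pcgf2 made up 30.7 ± 1.05% in TKO vehicle cells and 47.4 ± 3.08% in wild-type vehicle cells, and Pcgf1 7.11 ± 0.223% in TKO vehicle cells and 10.9 ± 0.574% in wild-type vehicle cells. Of Pcgf2 and Bmi1 alone, Bmi1 made up 41.04 and 43.5% in TKO libraries with PRT4165 and 45.8 and 52.3% in Tet1-KO TKO libraries, so that on merged exons it was the larger of the pair in 1 library of the series, Tet1-KO TKO replicate 2. With the length of the longest transcript that library stood at 46.1%, and Pcgf2 was the larger of the pair in all 14 libraries. These shares depend on the lengths used and describe transcripts, not complexes.

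**Figure D4:**
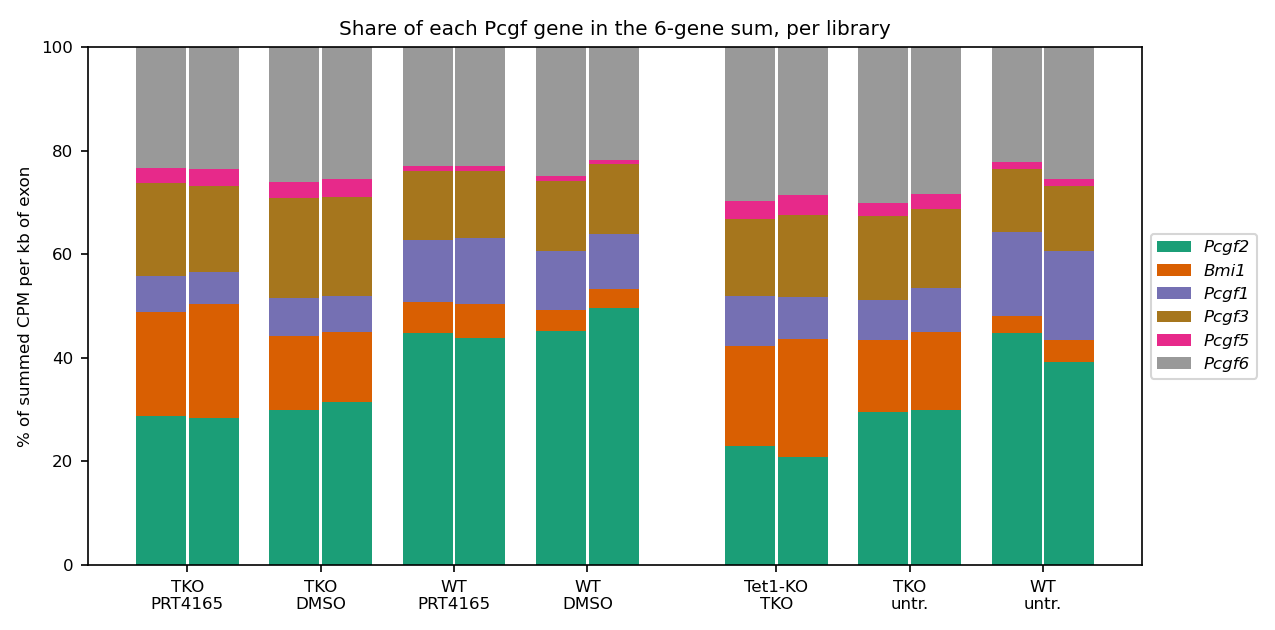
Share of each PCGF gene in the summed CPM per kb of the 6 genes, 1 bar a library and 2 bars a group. The Bmi1 segment is at 20.97% and 21.1% of the sum on average in TKO cells with PRT4165 and in Tet1-KO TKO cells, while the Pcgf2 segment is widest in the wild-type groups.

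Partners of the members were read from 3 lists, all of whose genes were tested. Their counts stand beside the shares of all genes called, which were 34.8% higher and 34.2% lower by genotype with vehicle, 25.9% higher and 24.3% lower without treatment, 19.9% higher and 19.6% lower with the inhibitor in TKO cells, 19.0% higher and 18.7% lower with it in wild-type cells, and 11.6% higher and 10.4% lower with loss of Tet1 on TKO. Of 10 canonical CBX, PHC and SCM genes, 6 were higher and 3 lower in TKO than in wild-type vehicle cells, where 69.0% of all genes were called, with a median of 0.32 beside 0.01 over all genes, and without treatment 3 were higher and 3 lower. Scml2, an X-linked SCM gene, rose by 4.78 with vehicle and 4.94 without, Scmh1 by 1.79 and 1.92, and Cbx6 fell by 1.19 and 0.65. By the joint fit the Cbx6 change differed between the experiments (-0.56, adjusted p = 0.0190 by edgeR). With the inhibitor 3 were higher and 1 lower in TKO cells and 3 higher and 2 lower in wild-type cells. Cbx7, whose protein reads methylated histone H3 in the canonical complexes of embryonic stem cells, fell by 0.56 in TKO and 0.57 in wild-type cells. With loss of Tet1 on TKO, 2 were higher and 1 lower.

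Of 22 other variant subunit genes, 7 were higher and 11 lower in TKO than in wild-type vehicle cells, where 69.0% of all genes were called, and 6 were higher and 6 lower without treatment, where 50.2% were. Bcor, which joins the PCGF1 complex, rose by 2.03 with vehicle and 2.501 without, and Auts2, which joins the PCGF3 and PCGF5 complexes, rose by 2.24 and 1.73. Bcor thus rose where Pcgf1 fell, and Auts2 rose where Pcgf5 rose. L3mbtl2, of the PCGF6 complex, rose by 0.70 and 1.17. The joint fit called a difference between the experiments for 0 of the 22 genes higher and 6 lower. Of all genes, 5.42% were called higher and 7.5% lower. L3mbtl2 was among the 6 (-0.49, adjusted p = 0.00790 by edgeR). With the inhibitor 6 were higher and 5 lower in TKO cells and 6 higher and 6 lower in wild-type cells, and L3mbtl2 fell by 0.27 and 0.31. With loss of Tet1 on TKO, 3 were higher and 1 lower, and Auts2 rose by 0.75. Yaf2, the paralogue of Rybp, rose by 0.55 in that comparison. Among the partner genes named here, L3mbtl2 shares 1023 exon bases with Chadl, Cbx6 shares 563 with Npcd, Cbx7 shares 100 with Apobec3 and Asxl1 shares 197 with 2500004C02Rik, so reads there may be split or left out.

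Of 10 genes of the opposing machinery, which removes ubiquitin from histone H2A, 4 were higher and 3 lower in TKO than in wild-type vehicle cells, where 69.0% of all genes were called, and 2 were higher and 2 lower without treatment, where 50.2% were. Usp21 fell by 0.98 with vehicle and 1.15 without, and Asxl1, a partner of the deubiquitinase BAP1, rose by 0.59 and 0.91. Usp21 lies on chromosome 1, whose low median in TKO cells is given above for Rnf2. The part of that chromosome-wide difference in the fall of Usp21 was not tested. By the joint fit the rise of Asxl1 differed between the experiments (-0.35, adjusted p = 0.0380 by edgeR). With the inhibitor 0 were higher and 4 lower in TKO cells and 0 higher and 3 lower in wild-type cells by edgeR, where 39.5% and 37.6% of all genes were called, with list medians of -0.05 and -0.02. With so few genes, nothing particular to this list is read from these counts. DESeq2 called 0 higher and 3 lower in each genotype, and 0 were higher at an unadjusted p under 0.05 by either tool. Mysm1, a deubiquitinase gene, fell by 0.64 in TKO and 0.41 in wild-type cells, and Asxl1 by 0.35 and 0.34.

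The genes most alike in pattern were sought among 10123 protein-coding genes by Pearson correlation of log2 CPM over the 8 libraries of experiment 1, with the 6 of experiment 2 beside it. Tmem183a, also on chromosome 1, was closest to Rnf2 (r = 0.9997 and 0.997). Slc30a2 was closest to Bmi1 (0.998 and 0.842), Atp8a1 to Pcgf5 (0.999 and 0.948) and Ipmk to Kdm2b (0.9996 and 0.801). Chchd10 was closest to Ring1 (0.999 and 0.922) and Bcl3 to Pcgf2 (0.998 and 0.897). For Pcgf6, whose level varied least between groups, Tmem222 was closest with 0.970 in experiment 1 but had -0.35 in experiment 2. Steap3, closest to Pcgf3, had 0.996 and -0.47, and Mrps27, closest to Rybp, had 0.998 and 0.488. The points share their libraries and fall into genotype groups, so these values describe group levels more than single libraries.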

How the data were processed

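Poly(A) libraries of mouse embryonic stem cells were counted by the authors, who deposited raw counts per Ensembl gene in 2 tables. The submitters' processing notes name build mm9 and the tools HTSeq 0.5.3p9, TopHat2 2.0.2 and Bowtie 0.12.8. They leave the annotation release and the strand setting unnamed. The way overlapping genes were counted is also not given in the sources used here. Symbols, exon lengths, chromosomes and gene order came from GENCODE on a later build, GRCm38, which matched 32938 of the 37991 IDs. Unmatched IDs held 0.482% to 0.85% of counts.

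Each table was fitted in edgeR 4.0.16 (R 4.3.3, limma 3.58.1) with filterByExpr (minimum count 10, total 15), TMM and group means, and tested two-sided by its quasi-likelihood F-test with Benjamini-Hochberg adjustment over all genes. Residual degrees of freedom were 4 and 3, and 7 in the joint fit, with biological coefficients of variation of 3.73%, 10.5% and 7.26%. Intervals cover 95%. The fits were tested on simulated counts. Alternatives were other size factors, library size alone, no filter, DESeq2 1.42.0, a replicate block and leaving out each library.

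The members and partner lists were chosen with earlier results of these data known. From each partner list, named genes were taken from the up to 4 called with the smallest p in a comparison. Pattern-like genes needed a mean of at least 5 CPM, with a prior count of 2. Whether replicates were separate cultures is not stated. The p-values therefore measure the spread of these libraries alone, and that spread may be technical. Replicate pairs differed by more than sampling noise (chi-square per degree of freedom 1.81 to 37.1).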

Additional observations from a re-analysis of the deposited data

Results flagged for a closer look

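Pcgf5 is listed because its genotype change differed between the 2 experiments by the test of the difference itself. It had 21.4 and 24.6 CPM in TKO vehicle cells, against 6.57 and 6.34 CPM in wild-type vehicle cells, and 17.1 and 19.1 CPM in untreated TKO cells, against 9.32 and 10.1 CPM in untreated wild-type cells. The log2 change between TKO and wild-type cells was larger by 0.90 with vehicle (SE 0.16, adjusted p = 0.00198 by edgeR's quasi-likelihood test). It was higher in TKO in every library of both experiments. Over all alternatives the difference ranged from 0.80 to 1.03 with adjusted p of 8.55e-05 to 0.0161. Vehicle and experiment cannot be told apart.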

How the results depend on the processing

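Of 47 called member changes, 41 were called in the same direction under every alternative and 0 reversed. The other 6, given beside their values in the report, are Pcgf5 with inhibitor in wild-type cells, Rnf2 with loss of Tet1 on TKO, Rybp untreated and in TKO with inhibitor against wild-type vehicle, and Pcgf6 and Rybp between Tet1-KO TKO and wild-type cells. Changes of uncalled members turned sign as follows, and the cause was not tested. By library size alone, Pcgf6 under vehicle was 0.0940 and Rybp with loss of Tet1 was -0.0287. By library size alone Pcgf3 untreated (0.28, adjusted p = 0.0334) and Pcgf6 in TKO with inhibitor against wild-type vehicle (0.17, adjusted p = 0.00249) became calls. Leaving out 1 library at a time gave -0.163 to 0.0913 for Pcgf2 and -0.0470 to 0.0663 for Pcgf3 with inhibitor in wild-type cells. In TKO cells it gave -0.0295 to 0.150 for Ring1, -0.00600 to 0.213 for Pcgf1, -0.0237 to 0.113 for Pcgf3 and -0.0315 to 0.167 for Pcgf5. It gave -0.0201 to 0.0434 for Pcgf6 in TKO with inhibitor against wild-type vehicle, and -0.0107 to 0.0984 for Rybp with loss of Tet1. Genes called in the interaction numbered 650, against 417 by DESeq2 and 304 to 913 with 1 library left out, and members called 0 to 1. With loss of Tet1 on TKO the 3584 calls became 1633 to 4510, with the low values of 2214, 1633 and 1721 without Tet1-KO TKO replicate 2 and without TKO replicates 1 and 2. In the joint fit 2228 became 980 to 3299, with 1 to 2 members called. With longest transcripts 8 of 10 ranks held in wild-type vehicle cells and 3 to 10 over the 7 groups, fewest in Tet1-KO TKO cells, and the shares were also computed on those lengths, a choice made after seeing the data.

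Replicate numbers are shared between groups, but the labels do not say that they mark a batch. Deviations of same-numbered libraries correlated at -0.0345 to 0.0384 in experiment 1 and 0.111 to 0.236 in experiment 2. With a replicate block 9 members were called by genotype with vehicle, 4 and 3 with inhibitor in wild-type and TKO cells, 0 in the interaction, 8 untreated, 3 with loss of Tet1 and 10 between Tet1-KO TKO and wild-type cells, the same numbers as without it. The block changed no member's call, and gene counts moved by less than 1.5 times, as in 8790 untreated calls, against 8187 without it. Ring1, Pcgf1 and Pcgf5 had the widest intervals by genotype with vehicle, and the part of depth in this was not tested.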
